A study of Homo sapiens with 6 samples.

Results

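The intermediate filament and lamin genes described here are 10 genes of the 24480 gene symbols in the deposited table, taken by symbol: the glial and mesenchymal filament genes VIM, NES, GFAP and SYNM, the keratin genes KRT8, KRT18 and KRT14, and the lamin genes LMNA, LMNB1 and LMNB2. All 10 were found, each on 1 row, and all 10 passed the filter on low values. RNA-seq had been run on LN229, an established human glioblastoma cell line, in 3 libraries of cells transduced with an empty vector and 3 libraries of cells transduced with LACTB, a mitochondrial serine beta-lactamase-like protein. The study asked what LACTB does in glioma cells. No further treatment is named, and the labels do not say whether the transduced cells were clones or pools. They also do not state that libraries derive from separate cultures. The p-values therefore rest on library-to-library spread, and that spread may be technical. In the limma test the variance of each gene was also drawn toward a trend fitted over all genes tested.

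Intermediate filaments are rope-like polymers of coiled-coil proteins that give cells and nuclei their resistance to stretch. In glial tissue the cytoplasmic network is built mainly of vimentin, nestin and GFAP, with vimentin and nestin typical of precursors and of glioma cells and GFAP typical of mature astrocytes. Epithelial keratins polymerise only as pairs of a type I and a type II chain, such as KRT18 with KRT8. Lamins form the meshwork under the inner nuclear membrane, where A-type lamins come from LMNA and B-type lamins from LMNB1 and LMNB2.

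Column totals ran from 34907025 to 41384269 normalized read counts, the unit of every level below, and all 3 LACTB libraries lay below the vector libraries. LACTB itself rose from 455 ± 61.4 to 4183 ± 96.3 (SD, n = 3 each; limma adjusted p = 2.95e-14). Among 12939 genes tested 51.9% passed the threshold (limma, Benjamini-Hochberg adjusted p below 0.05), with 27.4% higher and 24.6% lower with LACTB, and the median log2 difference was 0.05. Against this background, 5 of the 10 members passed: VIM, GFAP and KRT14 were higher, and KRT8 and KRT18 were lower. The share of members called was thus close to that of all genes. The same 5 had groups that did not overlap, beside 59.7% of all genes tested (31.1% with LACTB above and 28.7% with LACTB below). All differences are LACTB minus vector on the log2(value + 1) scale. In RNA from bulk cultures, a change in every cell and a change in the share of cells that express a gene cannot be told apart.

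**Figure D1:**
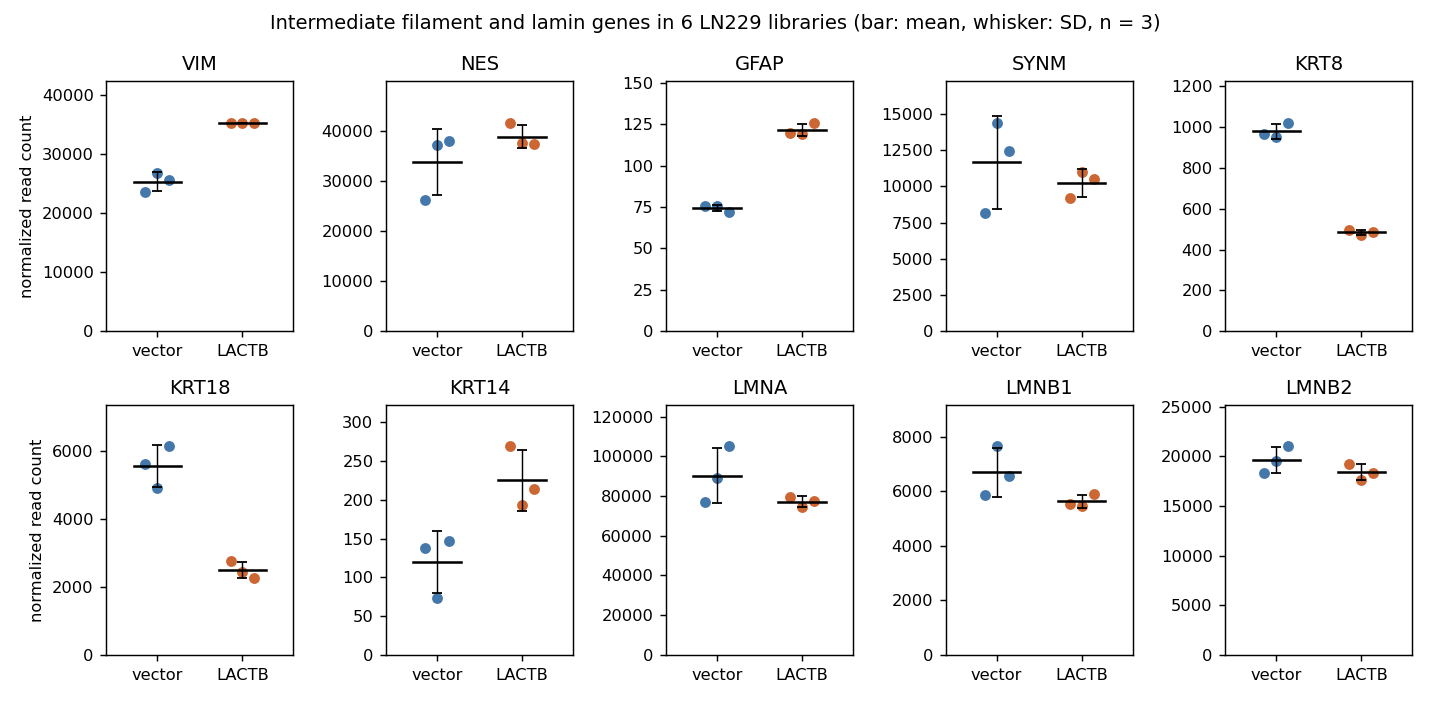
Normalized read counts (y axis, from 0) of the 10 genes in the 3 vector and 3 LACTB libraries, 1 point per library, with the mean and SD. For VIM, GFAP, KRT14, KRT8 and KRT18 the points of both groups are apart; for NES, SYNM and the 3 lamin genes they overlap.

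Vimentin, nestin, GFAP and synemin gave 2 rises and no fall. VIM, which encodes the vimentin of mesenchymal and glioma cells (chromosome 10, 17228259 to 17237593, plus strand, GRCh38), stood at 23605, 26854 and 25641 in the vector libraries and at 35329, 35290 and 35281 in the LACTB libraries. Every LACTB library lay above every vector library. The rise was 1.39-fold, from 25367 ± 1642 to 35300 ± 25.6, with a log2 difference of 0.48 (SE 0.11, 95% interval 0.25 to 0.71, adjusted p = 0.00116). The SD of the LACTB libraries was far smaller than that of the vector libraries, and how the values were adjusted before deposit is not described. The antisense gene VIM-AS1 overlaps VIM exons over 641 bases and stood at 57.4, 59.6 and 22.7 with vector and 38.6, 31.2 and 16.1 with LACTB. VIM was called higher under all 16 alternative settings, with a difference from 0.35 after median centring to 0.85 after quantile normalization.

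The bases before the RefSeq start of VIM are shown. VIM was chosen because it is the called gene of this class with an entry among the RefSeq promoter sequences (GRCh38.p14). The 250 bases at chr10:17227991-17228240, plus strand, read as follows, with capitals marking a GC box, the motif GGGCGG bound by SP1 and related factors.
VIM: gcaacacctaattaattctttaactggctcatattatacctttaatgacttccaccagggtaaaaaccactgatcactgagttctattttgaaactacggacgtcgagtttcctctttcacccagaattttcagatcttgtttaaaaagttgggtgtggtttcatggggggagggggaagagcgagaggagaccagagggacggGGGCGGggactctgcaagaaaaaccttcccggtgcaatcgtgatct
The GC box lies 46 to 41 bases before the RefSeq start. The TATA box (TATAAA), the box bound by NF-Y (CCAAT), the AP-1 motif (TGANTCA) and the E-box (CACGTG) were not found in this window on either strand. GENCODE lists 4 coding transcripts for VIM, and the bases before any other start of the gene were not searched. The absence of these motifs therefore holds for this window alone. GGGCGG occurs on either strand in 42.6% of all 35116 such windows, the TATA box in 10.7%, the NF-Y box in 32%, the AP-1 motif in 6.57% and the E-box in 6.34%. The window was 46.0% G or C, against a median of 58.0% over all windows. Sequences were matched for 7 of the 10 members. Among the genes without a call, NES held 2 matches to GGGCGG, SYNM 4, and LMNA and LMNB2 1 each, while LMNB1 held none. KRT8, which was called lower, also held none.

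GFAP encodes the defining filament protein of astrocytes (chromosome 17, 44903161 to 44916937, minus strand). Its level was low, at 75.7, 75.6 and 72.3 in the vector libraries, against 120, 119 and 126 in the LACTB libraries. The groups did not overlap. GFAP rose 1.63-fold, with a log2 difference of 0.70 (SE 0.24, 95% interval 0.21 to 1.19, adjusted p = 0.0165). The call was lost without LACTB replicate 2 (0.71, adjusted p = 0.0521) and without LACTB replicate 3 (0.67, adjusted p = 0.0646). Under all scalings tried GFAP was higher, with an adjusted p near the threshold after median centring (0.0485) and with quantile normalization (0.0494). Leaving out LACTB replicate 1 gave an adjusted p of 0.0489. Its exons overlap those of CCDC103, on the opposite strand, over 2230 bases. CCDC103 itself stood between 0.0701 and 5.25 in the vector libraries and between 4.36 and 15.0 in the LACTB libraries, and did not pass the filter. Whether strand was used in counting is not given in the sources used here.

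NES, which encodes nestin, the filament protein of neural precursors that copolymerises with vimentin (chromosome 1, 156668763 to 156677397, minus strand), stood at 26167, 37151 and 38019 in the vector libraries and at 41626, 37631 and 37368 in the LACTB libraries. The groups overlapped, and vector replicate 1 lay well below its group. The log2 difference was 0.22 (SE 0.13, 95% interval -0.06 to 0.50, adjusted p = 0.171), so NES did not pass. It did pass, in the same direction, under 3 other scalings: quantile normalization gave 0.64 (adjusted p = 0.000453), equal column totals 0.41 (adjusted p = 0.017) and removal of the trend on transcript length and GC content 0.32 (adjusted p = 0.00814). Without vector replicate 1 the difference was 0.05.

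SYNM encodes synemin, a large filament protein that needs vimentin or another partner to polymerise (chromosome 15, 99098217 to 99135593, plus strand). Its values were 8128, 14384 and 12417 in the vector libraries, against 9187, 11006 and 10490 in the LACTB libraries. The vector libraries spanned the whole range of the LACTB libraries. The log2 difference was -0.15 (SE 0.15, 95% interval -0.47 to 0.17, adjusted p = 0.422). Its sign turned with quantile normalization (0.03), with equal column totals (0.04) and without vector replicate 2 (0.02). Without vector replicate 1 SYNM was called lower (-0.39, adjusted p = 0.00373). An antisense gene, AC036108.2, overlaps SYNM exons over 2027 bases.

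The keratin pair KRT8 and KRT18 gave the 2 falls among the members, and each fell to less than 50% of its vector level. KRT18, the type I chain of simple epithelia (chromosome 12, 52948871 to 52952901, plus strand), stood at 5611, 4912 and 6137 in the vector libraries and at 2752, 2450 and 2278 in the LACTB libraries. All LACTB libraries lay far below the vector libraries. The means were 5553 ± 615 and 2493 ± 240, and the log2 difference was -1.15 (SE 0.12, 95% interval -1.40 to -0.91, adjusted p = 7.34e-08). KRT8, its type II partner (chromosome 12, 52897187 to 52949954, minus strand), stood at 965, 954 and 1021 in the vector libraries and at 495, 472 and 485 in the LACTB libraries. Again the groups were apart, with little spread within either. The means were 980 ± 36.0 and 484 ± 11.4, and the log2 difference was -1.02 (SE 0.14, 95% interval -1.30 to -0.73, adjusted p = 2.74e-06). Both were called lower under all 16 alternative settings. The smallest falls were seen with length and GC removed, at -0.78 for KRT18 and -0.72 for KRT8.

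KRT8 and KRT18 lie side by side on chromosome 12 with their starts facing each other, and in GENCODE release 29 their exons overlap over 525 bases on opposite strands. With length and GC removed, the 50 tested genes nearest to each along the chromosome had a median difference of -0.21 around KRT8 and -0.21 around KRT18. This window median was not tested, and KRT80 and KRT7, farther along the same cluster, were higher. For the other 8 members this median lay between -0.08 (LMNB1) and 0.19 (LMNA). Whether the neighbourhood took part in the fall of the pair was not tested.

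KRT14, the type I keratin of basal epidermal cells (chromosome 17, 41582279 to 41586921, minus strand), moved the other way from a low level. It stood at 138, 74.0 and 146.5 in the vector libraries and at 269, 193 and 214 in the LACTB libraries. The groups did not overlap, although both spread widely. The rise was 1.88-fold, with a log2 difference of 0.96 (SE 0.25, 95% interval 0.44 to 1.47, adjusted p = 0.00267). It was called under all 15 settings that kept it, from 0.64 without vector replicate 2 to 1.43 with length and GC removed. No row was matched for KRT5, the usual type II partner of KRT14.

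The values of the 3 keratins are uncertain, because parts of their transcripts recur in other genes. Of the 50-base words of the KRT8 transcript 32.7% also occur in a transcript of another gene in GENCODE release 29, and the shares were 31.8% for KRT18 and 23.8% for KRT14, against 0% for each of the other 7 members. GENCODE names 50 pseudogenes for KRT8 and 67 for KRT18, and 0 of these have a row in the table. For KRT18 and KRT14 the longest coding stretches shared letter for letter with a near copy are shown because reads that fall within them cannot be assigned to either gene by sequence. They are given in lower case, 5′ to 3′, as in the GENCODE transcripts, KRT18 with KRT18P11 (coding bases 882 to 967) and KRT14 with KRT16 (310 to 467).
KRT18: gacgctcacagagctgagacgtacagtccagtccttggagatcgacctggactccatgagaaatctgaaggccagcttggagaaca
KRT14: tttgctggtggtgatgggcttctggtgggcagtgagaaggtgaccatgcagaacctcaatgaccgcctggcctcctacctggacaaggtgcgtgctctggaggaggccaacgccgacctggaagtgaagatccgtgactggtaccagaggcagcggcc
KRT16 itself stood at 8.49, 10.9 and 2.24 in the vector libraries and at 24.9, 15.6 and 0.156 in the LACTB libraries, and it did not pass the filter on low values.

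None of the 3 lamin genes passed the test. LMNA, the source of lamins A and C (chromosome 1, 156082573 to 156140089, plus strand), stood at 76928, 89065 and 104972 in the vector libraries, against 79752, 74223 and 77351 in the LACTB libraries. The groups overlapped through vector replicate 1. The log2 difference was -0.22 (SE 0.13, 95% interval -0.48 to 0.04, adjusted p = 0.151). Gene-level values do not separate lamin A from lamin C, which are splice products of the same gene. The LMNA difference turned positive with quantile normalization (0.18) and with length and GC removed (0.12), while median centring (-0.35, adjusted p = 0.0461) and leaving out vector replicate 1 (-0.33, adjusted p = 0.00979) called it lower.

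LMNB1, a B-type lamin that stays attached to the membrane by its farnesyl group (chromosome 5, 126776623 to 126837020, plus strand), stood at 5876, 7646 and 6570 in the vector libraries and at 5527, 5469 and 5900 in the LACTB libraries. Only vector replicate 1 and LACTB replicate 3 crossed. The log2 difference was -0.24 (SE 0.12, 95% interval -0.48 to -0.0021, adjusted p = 0.084). LMNB1 was called lower after median centring (-0.37, adjusted p = 0.0144) and without vector replicate 1 (-0.33, adjusted p = 0.00646), and it was at -0.05 with equal column totals. LMNB2, the second B-type lamin gene (chromosome 19, 2427638 to 2456996, minus strand), stood at 18337, 19502 and 20992 in the vector libraries and at 19247, 17654 and 18354 in the LACTB libraries. These groups overlapped. The log2 difference was -0.09 (SE 0.11, 95% interval -0.32 to 0.14, adjusted p = 0.522), and it was positive with quantile normalization (0.17), equal column totals (0.10) and length and GC removed (0.12). The exons of LMNB2 overlap those of TIMM13 on the same strand over 257 bases, and TIMM13 fell from 5263 ± 602 to 3382 ± 112 (adjusted p = 9.21e-05), a call not made with length and GC removed (adjusted p = 0.138).

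**Figure D2:**
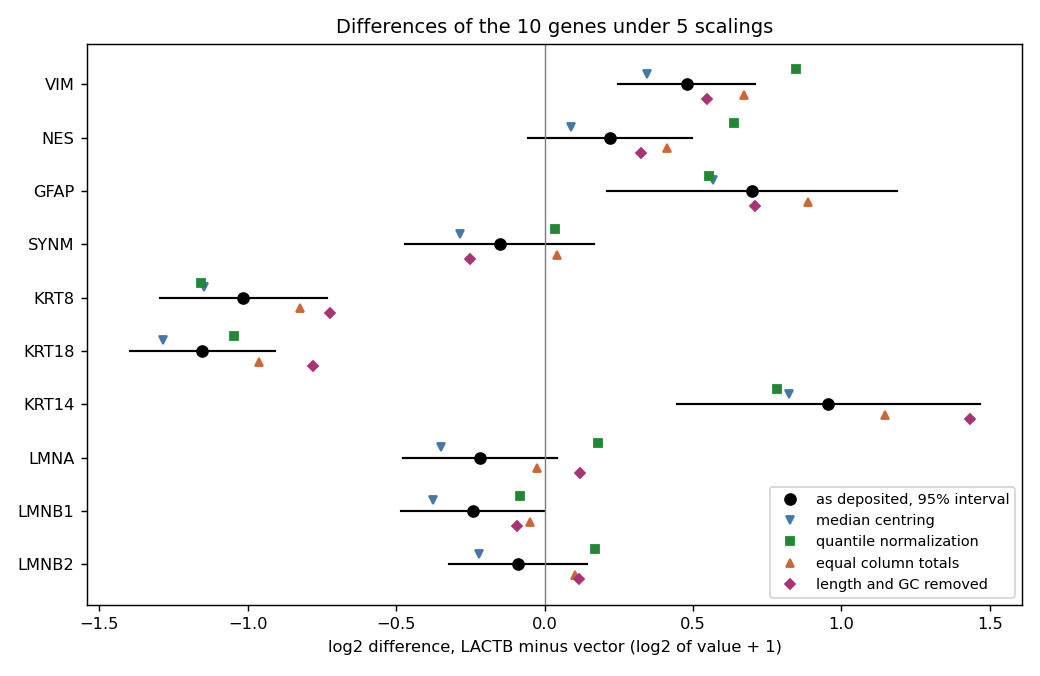
Log2 difference (x axis, LACTB minus vector, log2 of value + 1) of each gene with its 95% interval as deposited, and its value under 4 other scalings. VIM, GFAP and KRT14 stay right of 0 and KRT8 and KRT18 left of 0 under every scaling shown; SYNM, LMNA and LMNB2 fall on both sides.

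The members were ranked by their level per kilobase of transcript, using the principal coding transcript in GENCODE release 29. In vector cells the order of normalized counts per kilobase was LMNA (28314 ± 4409), VIM (11881 ± 769), NES (6078 ± 1189), LMNB2 (4198 ± 285), KRT18 (3555 ± 393), LMNB1 (2327 ± 310), SYNM (1575 ± 433), KRT8 (461 ± 16.9), KRT14 (72.0 ± 23.9) and GFAP (11.4 ± 0.289). Of neighbours in this order, LMNB2 and KRT18 overlapped between libraries and the others did not. In LACTB cells LMNB1 (1957 ± 81.2) stood above KRT18 (1596 ± 154), which overlapped with SYNM (1383 ± 127). Per kilobase of all exons of a gene, NES and VIM overlapped in both groups, and KRT14 stood above KRT8 in LACTB cells. KRT18 stood well above KRT8 per kilobase in both groups, although their proteins pair.

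Within the summed level per kilobase of the 7 cytoplasmic members, vimentin took a larger share in each LACTB library than in any vector library. Its share was 52.6%, 50.6% and 48.0% in the vector libraries, against 60.3%, 61.9% and 62.4% in the LACTB libraries. KRT18 went from 17.1%, 12.7% and 15.7% to 6.42%, 5.87% and 5.50%. The nestin share overlapped, at 25.5% ± 2.72 and 26.0% ± 1.11. GFAP made up at most 0.0727% in any library. Among the 3 lamins LMNA held 81.1% ± 1.54 of the level per kilobase in vector cells and 80.4% ± 0.160 in LACTB cells, a difference within the vector SD. The LMNB2 share was 12.1% ± 0.868 and 13.1% ± 0.145, a difference larger than the vector SD, with overlapping libraries. All shares above are per kilobase of the principal coding transcript, and they depend on that length. Per kilobase of all exons, vimentin held 34.35% ± 2.68 in vector cells and 42.5% ± 1.05 in LACTB cells. Nestin then held 41.9% ± 3.10 and 43.4% ± 1.55, and LMNA 70.2% ± 2.10 and 69.1% ± 0.196 of the lamins.

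Ratios of 2 genes within a library do not change when a library is multiplied by 1 factor, although quantile normalization and the removal of length and GC do change them. In all, 9 were compared as deposited with an exact two-sided permutation test over the 6 libraries, which cannot give a p below 0.1. The ratio of KRT8 to KRT18 was 0.172, 0.194 and 0.166 in the vector libraries, against 0.180, 0.193 and 0.213 in the LACTB libraries. These ranges overlapped (log2 difference 0.14, exact p = 0.3), which does not show that the balance of the pair stayed the same. With quantile normalization the order turned, with KRT8 at -1.16 and KRT18 at -1.05. The ratio of KRT18 to VIM went from 0.220 ± 0.0321 to 0.0706 ± 0.00676, a log2 difference of -1.63, with no overlap (exact p = 0.1, adjusted p = 0.225 over the 9 ratios). The ratio of KRT14 to KRT18 went from 0.0212 ± 0.00532 to 0.0901 ± 0.0100, a log2 difference of 2.11, and also did not overlap (exact p = 0.1).

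The other genes of the vimentin class were set against VIM in the same way. SYNM to VIM went from 0.455 ± 0.0990 to 0.290 ± 0.0267 without overlap (log2 difference -0.63, exact p = 0.1), and GFAP to VIM from 0.00295 ± 0.000224 to 0.00345 ± 0.000110 without overlap (0.22, exact p = 0.1). With a pseudocount of 1 CPM the log2 difference of GFAP to VIM was 0.027 (exact p = 0.6), and with quantile normalization GFAP, at 0.55, differed less than VIM, at 0.85. NES to VIM overlapped (log2 difference -0.26, exact p = 0.2). The 3 lamin ratios overlapped, with log2 differences of -0.03 for LMNB1 to LMNA, 0.13 for LMNB2 to LMNA and -0.15 for LMNB1 to LMNB2 (exact p = 0.8, 0.3 and 0.3). None of the 9 ratios passed after adjustment, which the number of libraries does not allow.

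**Figure D3:**
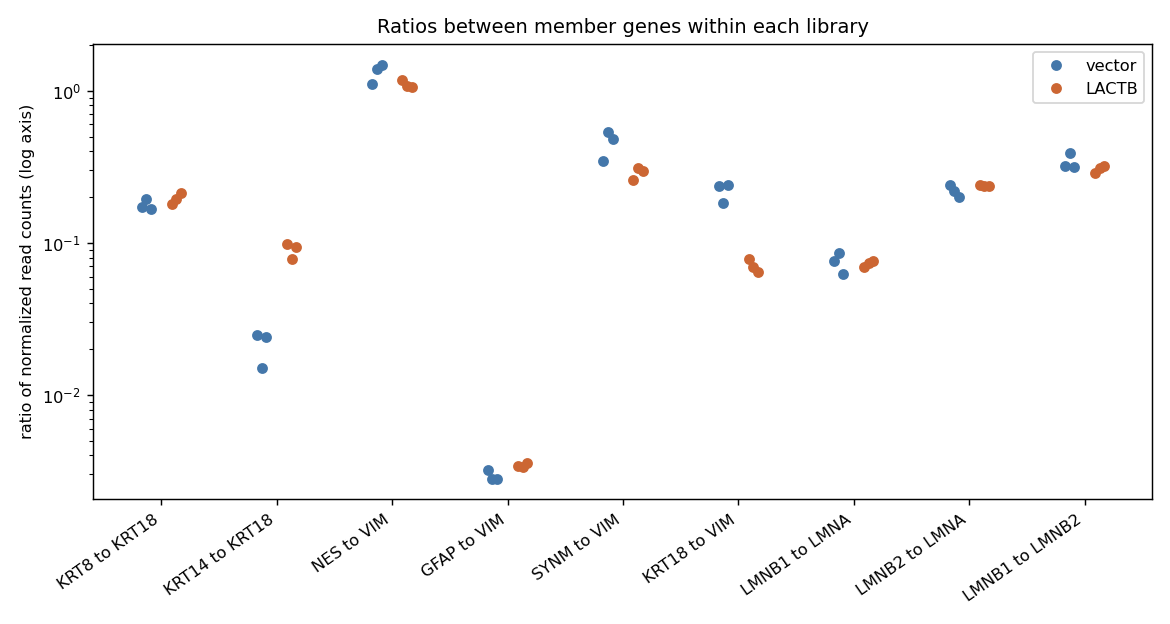
Ratio of normalized read counts of 2 member genes within each library (y axis, log scale), 1 point per library. KRT14 to KRT18 and KRT18 to VIM show the widest gaps between vector and LACTB, while KRT8 to KRT18 and the 3 lamin ratios overlap.

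Among the remaining intermediate filament genes, 42 of 63 had a row, 10 passed the filter and 32 stayed below it, none of the last above 36.1 in any library. Of the 10 tested, 4 rose and 3 fell, with a median of 0.17. This count and those of the later lists stand beside 51.9% of all genes called (27.4% higher, 24.6% lower), and no list was tested as a set. Desmin, the muscle filament gene DES, the neurofilament light chain gene NEFL and the simple keratin gene KRT19 were all among those below the filter. KRT80, a type II keratin (chromosome 12, 52168996 to 52192000), stood at 694, 755 and 836 in the vector libraries and at 2922, 1769 and 1829 in the LACTB libraries. Every LACTB library lay above the vector libraries. KRT80 thus differed by 1.48 on the log2 scale (SE 0.16, adjusted p = 1.53e-07), the opposite direction to KRT8 and KRT18 farther along the same cluster.

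SYNC, which encodes the filament-associated protein syncoilin, rose from 204 ± 16.9 to 561 ± 106 (adjusted p = 8.71e-07). BFSP1, the lens filament gene filensin, fell from 2215 ± 115 to 1411 ± 113 (adjusted p = 9.07e-05). The hair keratin gene KRT81 fell from 829 ± 91.9 to 448 ± 124 (adjusted p = 0.000145). It has near-identical relatives, so its value is uncertain. Once length and GC were removed the differences of BFSP1 and KRT81 were smaller, at -0.29 (adjusted p = 0.0356) and -0.43 (adjusted p = 0.0429). KRT10, a type I keratin of differentiated epidermis, fell from 3697 ± 601 to 2668 ± 131 (adjusted p = 0.00335). Its adjusted p was 0.0601 under equal column totals and 0.218 once length and GC were removed.

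The low keratin genes KRT15 and KRT7 rose, and both calls depended on single libraries. KRT15 went from 37.2 ± 16.5 to 82.5 ± 32.9 (adjusted p = 0.01) and passed the filter only through the LACTB libraries. Its call was lost without vector replicate 2 (adjusted p = 0.0846) and without LACTB replicate 3 (0.0627). KRT7 went from 56.2 ± 27.0 to 99.5 ± 16.2 with overlapping groups (adjusted p = 0.02). Its adjusted p missed the threshold without vector replicate 2 (0.142), without LACTB replicate 1 (0.0559) and under quantile normalization (0.056), and its difference went from 0.92 to 1.43 once length and GC were removed. IFFO1, IFFO2 and KRT17 did not pass, at -0.26, 0.24 and 0.10. IFFO1 was called lower after median centring (-0.40) and without vector replicate 1 (-0.34), and IFFO2 higher under equal column totals (0.43), while KRT17 was negative after median centring (-0.04). Keratin genes of the chromosome 12 cluster thus went both ways, with KRT80 and KRT7 higher and KRT81, KRT8 and KRT18 lower. So did those of the chromosome 17 cluster, with KRT14 and KRT15 higher and KRT10 lower.

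Among the tested genes that tie filaments to junctions, adhesions and other filaments, more rose than fell with LACTB. Of 10 tested linker and desmosome genes 6 rose and 2 fell, beside 27.4% and 24.6% of all genes (median 1.02, against 0.05 for all genes). One fall, EVPL, went from a mean of 72.5 to 15.27 and passed the filter only through the vector libraries. The other, PKP3, kept its call in 9 of 16 alternative settings. A further 10 were below the filter, among them the desmosomal linker desmoplakin (DSP) at 4.54 to 8.46. The plakin gene DST, which links keratins to hemidesmosomes and microtubules to actin, stood at 353, 440 and 314 in the vector libraries and at 1390, 1782 and 1253 in the LACTB libraries, a rise of 2.00 (adjusted p = 1.91e-09). The desmosomal cadherin gene DSG2 rose from 1059 ± 164 to 2838 ± 52.2 and the laminin-binding integrin gene ITGA6 from 2675 ± 328 to 5873 ± 391. With length and GC removed the rise of DST was 1.18, that of DSG2 1.04 and that of ITGA6 0.79, all still called, and the list had 5 rises and 1 fall with a median of 0.57.

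Of 21 tested partners of the lamins at the nuclear envelope, 11 were called higher and 3 lower (median 0.34), beside 27.4% and 24.6% of all genes. SYNE2, the giant nesprin that couples the nucleus to the cytoskeleton, rose from 282 ± 61.3 to 765 ± 137 (log2 difference 1.44, adjusted p = 8.94e-07). NUP153, a nuclear basket protein that binds lamins, rose from 787 ± 89.7 to 1533 ± 52.4 (adjusted p = 2.64e-06). BANF1, a small DNA-bridging protein of the reforming envelope, fell from 17911 ± 2921 to 10307 ± 405 (adjusted p = 1.91e-05). Once length and GC were removed, SYNE2 was at 0.69, NUP153 at 0.65 and BANF1 at -0.35, all still called. The split depended on scaling, with 16 rises and 1 fall under equal column totals, 8 and 4 after median centring, 13 and 1 with quantile normalization, and 9 and 2 with length and GC removed.

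Of the 7 genes of prelamin processing 1 rose and 2 fell (median -0.01), beside 51.9% of all genes called in either direction. ZMPSTE24, the protease that cleaves farnesylated prelamin A to mature lamin A, stood at 1470, 1448 and 1118 in the vector libraries and at 2345, 2464 and 2438 in the LACTB libraries. ZMPSTE24 differed by 0.85 on the log2 scale (SE 0.12, adjusted p = 8.02e-06), and by 0.62 with length and GC removed, while its substrate gene LMNA did not pass. NARF, which encodes a protein that binds prelamin A, fell from 5593 ± 449 to 3065 ± 103 (adjusted p = 1.44e-06). RCE1, the protease that trims the farnesylated tail, fell by 0.44 (adjusted p = 0.0128). That call was lost under equal column totals (adjusted p = 0.166), once length and GC were removed (0.855), without vector replicate 3 (0.0715) and without LACTB replicate 2 (0.0709). The farnesyltransferase subunit genes FNTA and FNTB did not pass, at 0.15 and 0.01; once length and GC were removed FNTA was called lower (-0.39) and FNTB higher (0.28), while equal column totals called FNTA higher (0.34).

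Among 23 kinases, phosphatases, proteases and chaperones that act on filaments 8 rose and 4 fell (median -0.10). The share called was close to the 51.9% of all genes. The genes with the smallest adjusted p were CRYAB, a small heat shock protein that binds vimentin-type filaments and GFAP, which fell by 1.98 (adjusted p = 5.48e-11), ROCK2, a kinase that phosphorylates vimentin and GFAP, which rose from 416 ± 120 to 1173 ± 232 (adjusted p = 6.13e-07), and PPP1CA, a catalytic phosphatase subunit, which fell by 0.97 (adjusted p = 1.05e-06). Once length and GC were removed ROCK2 was at 0.94 and PPP1CA at -0.48, both still called. The split was 6 higher and 6 lower after median centring, 10 and 2 under equal column totals, and 10 and 5 once length and GC were removed.

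**Figure D4:**
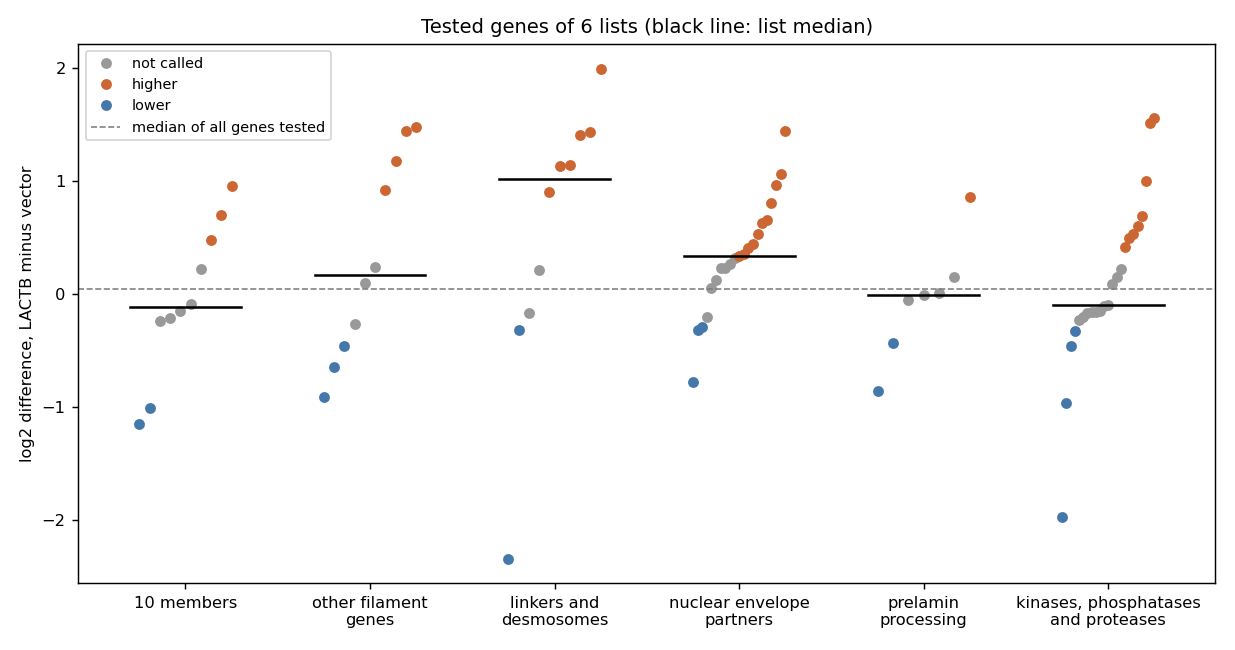
Log2 difference (y axis, LACTB minus vector) of each tested gene in 6 lists, 1 point per gene, coloured by whether it was called higher, called lower or not called; black lines are list medians and the dashed line is the median of all genes tested, 0.05. The linker and desmosome genes have the highest median, 1.02, and the members spread to both sides of 0.

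Markers were read beside the members. Of 12 epithelial markers 1 passed the filter, CLDN4, which was not called (-0.08, adjusted p = 0.843), and the defining genes EPCAM and CDH1 were at most 2.10 and 20.9 in any library. ESRP1 and TP63, also below the filter, reached 52.0 and 45.6. ESRP1 had means of 43.6 with vector and 24.2 with LACTB and TP63 of 20.3 and 34.1, with overlapping groups for both. The summed level of that list was 150.2 to 178 in the vector libraries, against 139.5 to 183 in the LACTB libraries. This concerns these 12 markers alone, since junction genes such as DSG2 were well above the filter. Of 10 mesenchymal markers tested 6 rose and 2 fell (median 0.52), beside 27.4% and 24.6% of all genes. TAGLN, an actin-binding protein of smooth muscle, rose by 2.61 (adjusted p = 1.65e-09), the cadherin gene CDH2 by 1.11 (adjusted p = 1.3e-07), and the collagen gene COL1A2 fell by 2.58 (adjusted p = 2.32e-07). COL1A2 went from a mean of 220 to 36.4 and passed the filter only through the vector libraries. Summed mesenchymal levels were 61587 to 77483 in the vector libraries, against 103708 to 108483 in the LACTB libraries. Most of that gain was FN1, the fibronectin gene, which went from 37157 to 67367 (adjusted p = 2.97e-05) and was not called once length and GC were removed (0.33, adjusted p = 0.0789). The part of these markers in the rise of VIM was not tested.

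Of 9 tested glial markers 4 rose and 4 fell (median 0.14), beside 27.4% and 24.6% of all genes. One of the rises, SOX9, went from a mean of 10.8 to 65.6 and passed the filter only through the LACTB libraries. SLC1A3, one of the falls, went from a mean of 91.15 to 28.96 and passed the filter only through the vector libraries. OLIG2, also lower, kept its call in 12 of 16 alternative settings. SOX2, a transcription factor of neural precursors, rose by 1.24 (adjusted p = 8.4e-08) and PTPRZ1, a receptor phosphatase of glial precursors, by 1.29 (adjusted p = 3.54e-07; 0.76 once length and GC were removed). S100B, an astroglial calcium-binding protein, fell from 33778 ± 5580 to 14499 ± 2186 (adjusted p = 2.14e-07). The mature astrocyte genes AQP4 and ALDH1L1 were at most 8.38 and 4.33 in any library. Other genes of the list were well above the filter and went both ways. GJA1 rose from a mean of 371.8 to 596.8 (adjusted p = 0.00153), and FABP7 fell from 2465 to 1599 (adjusted p = 0.0013). Summed glial levels were 34387 to 46030 in the vector libraries, against 18441 to 24049 in the LACTB libraries. S100B made up most of these sums. The part of these markers in the rise of GFAP was not tested. Among neuronal markers 1 of 4 tested rose, MAP2 (0.78, adjusted p = 0.000189), which was not called once length and GC were removed (adjusted p = 0.171). Among blood and endothelial markers 1 of 3 tested rose, CD68 (0.59, adjusted p = 0.000321; 0.98 once length and GC were removed), and the leukocyte gene PTPRC was at most 14.6.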

How the data were processed

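RNA-seq was done on 6 libraries, 3 per group. Per the labels' protocols, RNA was extracted with Trizol and chloroform. Per the submitters' processing notes, HISAT2 and hg38 were used; no source used here names the read counter, annotation, strand setting or scaling. The authors deposited 1 table of signal values, a normalized read count per gene and library. The values are not whole: with the best step per library only 31.6% to 54.5% of low values were whole (tolerance 0.05). Reads were therefore not recovered, depth is unknown, and the 3 libraries per group set the precision.

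Values below 1e-10 were set to 0. For 9 symbols on several rows the higher row was kept. The test on log2(value + 1), for genes whose mean reached 1 CPM (37.7 normalized counts), was limma 3.58.1 with trend and robust settings, run in R 4.3.3, two-sided, adjusted over all genes by Benjamini-Hochberg. The fit was tested on simulated data. Positions, lengths, GC and overlaps came from GENCODE release 29 (98.2% of tested genes). The members and lists were chosen with earlier results of these data known. Named were LACTB, the members, every other tested filament gene, the 3 smallest adjusted p among called genes of each other list, and genes overlapping or copying members. DES, NEFL, KRT19, DSP, FNTA, FNTB, FN1, SOX9 and the low markers were named after their values were seen. So were EVPL, PKP3, PLEC, ITGB4, SLC1A3, OLIG2, GJA1 and FABP7. The shared stretch of KRT8 is not reported here. Alternatives, whose effects are given at the end, were 4 other scalings, 2 filters, 2 pseudocounts, limma without trend and robust settings, a replicate block and leaving out each library.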

Additional observations from a re-analysis of the deposited data

How the results depend on the processing

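Precision is limited by 3 libraries per group and by an adjustment before deposit that is not described in the sources used here. Of 158 member differences recomputed under alternatives, 140 kept direction and side of the threshold. Members called numbered 3 under a filter at 5 CPM, which removed GFAP and KRT14, and 4 to 8 when a library was left out, the 8 being without vector replicate 1. Other scalings gave NES 0.64 (quantile normalization), 0.41 (equal column totals) and 0.32 (length and GC removed), SYNM 0.035 and 0.041 (quantile normalization, equal column totals), LMNA -0.35, 0.18 and 0.12 (median centring, quantile normalization, length and GC removed), LMNB1 -0.37 (median centring), and LMNB2 0.17, 0.10 and 0.12 (quantile normalization, equal column totals, length and GC removed). The cause was not tested. Leaving out each library gave ranges of 0.67 to 0.71 for GFAP, -0.39 to 0.022 for SYNM, -0.33 to -0.10 for LMNA, -0.33 to -0.14 for LMNB1, and -0.15 to 0.079 for the log2 ratio of LMNB1 to LMNA, which turned positive without vector replicate 2 (0.079) and without LACTB replicate 1 (0.013). All genes called numbered 5344 to 7341 when a library was left out, and rises and falls were 4974 and 1913 with equal column totals against 2684 and 4148 after median centring. Equal column totals moved the median of all genes to 0.24. In the lists, prelamin processing had 5 calls with length and GC removed, epithelial markers 2 without a filter, and neuronal markers 2 after median centring, 3 with quantile normalization, 2 with equal column totals, 2 with length and GC removed, and 1 to 2 when a library was left out.

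The deviations of same-numbered libraries from the group means correlated at 0.023, 0.182 and 0.003, the 0.182 of replicates 2 being the highest of all pairs. Vector replicate 3 correlated best with LACTB replicate 1 (0.161). With 3 libraries per group these values cannot tell whether same-numbered libraries share more than a number. With the replicate block 6879 genes were called, against 6721 without it, and 3 members rose and 2 fell in both.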
